A study of Mus musculus with 2 samples.

Results

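Free RNA of the dissociated retina was taken from all barcodes that held between 1 and 49 unique molecular identifiers (UMIs) in a single-cell RNA sequencing library. These barcodes numbered 471713 of 534360 in the control library (88.3%) and 867664 of 934656 in the light damage library (92.8%), or 1339377 of 1469016 in all. They carried 1431689 of 30605284 control UMIs (4.68%) and 2954346 of 54413601 light damage UMIs (5.43%), with a median of 2 UMIs a barcode in both libraries. Members were chosen by the total UMIs of a barcode, and the droplets they are compared with by total and mitochondrial share, so these values are given as a description. All members of a library were summed, and the sum was set beside the summed droplets of the same library that held at least 1500 UMIs with a mitochondrial share under 10%. The control had 3715 such droplets with 15471503 UMIs, and light damage 5970 with 40903337 UMIs.

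The 2 libraries came from retinae of mice labelled WT, 1 dark-adapted pool (control) and 1 pool after bright light (light damage), each of 3 to 5 animals. The mice carried 2 floxed Tgfbr2 alleles, which left them functionally wild type, on a Balb-C/CD1 background with the L450 form of RPE65, were of both sexes and were 6 to 9 weeks old. Both groups spent 18 h in the dark, and the light damage group then received 5000 lx for 30 min and recovered for 6 h. Tissue was digested with papain, collagenase and DNase and passed over beads that remove dead cells, so both free RNA and droplets were measured after that step. With 1 library per condition, light damage cannot be told apart from any other difference between the pools or the library preparations, and no test between conditions was possible. All intervals are 95% intervals of counting error alone, exact Poisson for levels, exact binomial for shares and conditional binomial for ratios. Ratios of the free RNA change to the droplet change have approximate log-normal intervals instead. PCR copies were already collapsed into UMIs. In summed pools, fewer cells of a type and less RNA per cell cannot be told apart.

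In droplet sequencing, RNA that leaks from broken cells stays in the suspension and is captured in droplets that hold no cell, where it shares 1 barcode per droplet. Rods, the most frequent cells of the mouse retina, keep their transcripts in the cell body and the inner segment, and the outer segment is torn off easily. Spliced transcripts lie mostly in the cytoplasm and intron-holding pre-mRNA in the nucleus, so the share of unspliced UMIs reports which compartment RNA came from. Mitochondrial transcripts, hemoglobin transcripts of erythrocytes, and transcripts of the retinal pigment epithelium (RPE), a layer that is separated from the retina during dissection, are common constituents of such RNA.

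Not all members were independent of the cells in the suspension. A total of 2267 control (2.85% of free UMIs) and 2858 light damage free RNA barcodes (1.43%) differed by 1 base from the barcode of a droplet with at least 1500 UMIs. A control droplet with 2666 UMIs, 3.53% of them unspliced, and a light damage droplet with 8469 UMIs, 40.7% of them unspliced, are shown with the free RNA barcodes that lie 1 base away, to show what these neighbours look like. Barcodes are written 5′ to 3′ and capitals mark the base that differs from the droplet.
Control droplet with 2666 UMIs: gcattagaggacatcg
Free RNA barcode with 15 UMIs: gcattagaggGcatcg
Free RNA barcode with 21 UMIs: gcattagaggacGtcg
Free RNA barcode with 10 UMIs: gcattagaggacaCcg
Free RNA barcode with 16 UMIs: gcattagaggacatTg
Free RNA barcode with 22 UMIs: gcattagaggacatcA
Light damage droplet with 8469 UMIs: aacgaaaagatcgctt
Free RNA barcode with 23 UMIs: aacgaaaagGtcgctt
Free RNA barcode with 11 UMIs: aacgaaaagaCcgctt
Free RNA barcode with 15 UMIs: aacgaaaagatTgctt
Free RNA barcode with 13 UMIs: aacgaaaagatcActt
Free RNA barcode with 14 UMIs: aacgaaaagatcgcCt
Free RNA barcode with 15 UMIs: aacgaaaagatcgctC

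There were 1895 control and 1914 light damage neighbours of at least 10 UMIs with a single such droplet, next to 1173 and 1280 droplets. Their differing base was always within positions 10 to 16 of the 16-base barcode, with 235 to 312 control and 246 to 336 light damage barcodes per position, and never within positions 1 to 9. The median neighbour held 0.563% of its droplet's UMIs where the control droplet was cytoplasm-rich (under 20% unspliced) and 0.489% where it was nucleus-rich (over 30%), against 0.279% and 0.205% in light damage. Summed, their unspliced shares were near those of the droplets beside them, although single neighbours varied, from 0% to 73.3% beside the light damage droplet shown. Neighbours of cytoplasm-rich control droplets held 4.00% unspliced UMIs (the droplets 5.11%), and neighbours of nucleus-rich ones 59.1% (the droplets 58.99%). In light damage these values were 4.63% beside 5.34% and 49.4% beside 49.7%, whereas barcodes of at least 10 UMIs with no droplet 1 base away held 14.8% in the control and 14.6% in light damage. Of the members of 10 to 19 UMIs, 1133 of 2839 control barcodes (39.9%) and 1265 of 28729 light damage barcodes (4.403%) were such neighbours. The 2 libraries shared 137149 barcodes, 733 control and 923 light damage members were droplets of the other library, and 7 barcodes were droplets in both.

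The totals of the members formed more than 1 population. Barcodes with a single UMI were the most frequent (221748 control and 293371 light damage barcodes), numbers then fell to a dip, and a second peak followed. The dip lay at 18 to 22 UMIs in the control (699 barcodes) and at 28 to 32 in light damage (246 barcodes), and the peak at 46 to 55 (7313 barcodes) and 63 to 72 (8825 barcodes). The upper bound of 49 UMIs therefore cut through the control peak and ran along the lower flank of the light damage peak. Members of 20 to 49 UMIs gave 35.0% of the free UMIs in the control (12998 barcodes) but 5.30% in light damage (4046 barcodes), and members of 1 to 9 UMIs gave 62.4% and 83.3%. Just inside the bound, 6675 control barcodes of 40 to 49 UMIs held 14.8% unspliced and 1.23% mitochondrial UMIs, and just outside, 7306 of 50 to 59 UMIs held 13.9% and 1.32%. In light damage the 2422 barcodes inside held 21.5% and 1.397%, and the 6050 outside 20.5% and 1.44%. Values on both sides of the bound were close, and the bound does not separate kinds of barcodes. For this reason the sums of 1 to 9 UMIs and of 30 to 99 UMIs are also given where they differ.

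**Figure D1:**
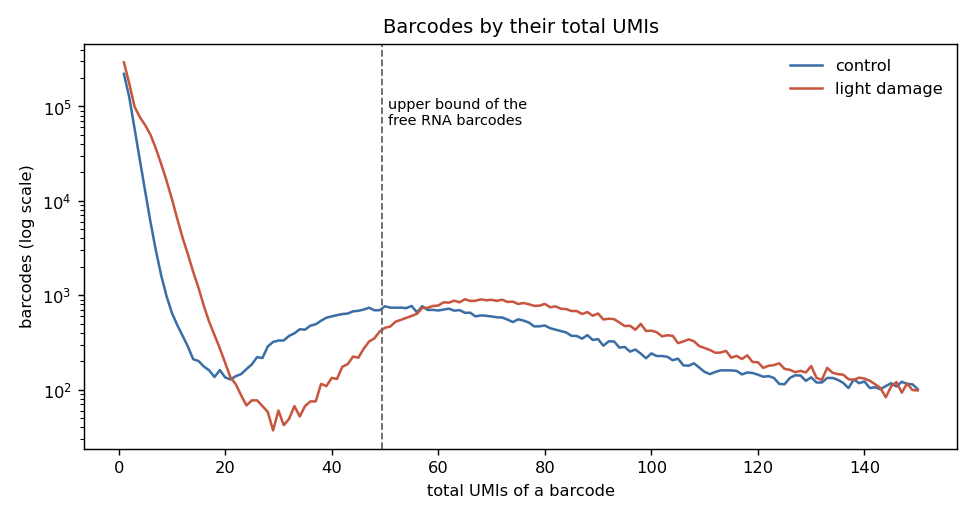
Number of barcodes (log scale) at each total of UMIs up to 150, in the control and the light damage library, with the upper bound of the free RNA barcodes as a dashed line. Both curves fall from 1 UMI to a dip, at 18 to 22 UMIs in the control and 28 to 32 in light damage, and rise to a second peak at 46 to 55 and 63 to 72 UMIs.

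The compartment of the free RNA was mostly cytoplasmic in both libraries by its unspliced share. Unspliced UMIs were 12.03% of control free RNA (interval 11.98 to 12.09) and 13.6% of light damage free RNA (13.54 to 13.62), against 22.5% and 38.8% in the droplets. Free RNA thus lay between cytoplasm-rich droplets, with 5.76% in the control and 5.45% in light damage, and nucleus-rich droplets, with 55.5% and 50.7%. Nucleus-rich droplets numbered 862 of 3715 in the control and 3530 of 5970 in light damage. Within the free RNA the share was near 10% in control barcodes of 1, 2 to 4 and 5 to 9 UMIs (10.53%, 10.1% and 9.90%) and higher at 10 to 19 and 20 to 49 UMIs (14.4% and 15.2%). In light damage it was 14.8%, 14.1% and 11.7% in the 3 lowest classes, 13.0% at 10 to 19 UMIs and 23.5% at 20 to 49 UMIs. The 20 to 49 class was thus the most nuclear one in both libraries, and more so after light damage.

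Mitochondrial transcripts had the opposite course. They were 5.55%, 5.27% and 5.16% of UMIs in control barcodes of 1, 2 to 4 and 5 to 9 UMIs, 3.70% at 10 to 19 and 1.27% at 20 to 49. In light damage the 4 classes up to 19 UMIs lay between 3.05% and 3.15%, and the class of 20 to 49 UMIs held 1.43%. Summed, free RNA held 3.87% mitochondrial UMIs in the control (3.83 to 3.90) and 3.02% in light damage (3.00 to 3.04), above the 2.46% and 1.16% of the droplets. The limit of 10% on droplets had little part in this, since all barcodes of at least 1500 UMIs held 2.62% and 1.22%. Above the range of the members, barcodes of 100 to under 500 UMIs held 5.04% in the control and 14.5% in light damage, the highest share of any class in that library.

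**Figure D2:**
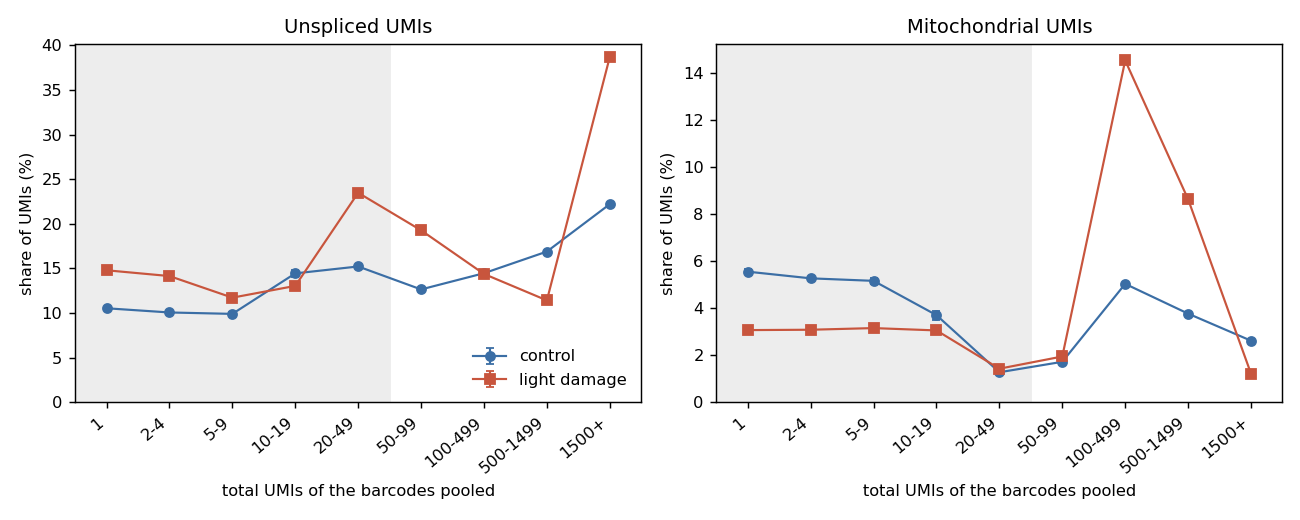
Share of unspliced UMIs (left) and of mitochondrial UMIs (right), in percent, over summed barcodes by class of total UMIs, with exact binomial 95% intervals. The grey band marks the free RNA classes, where the class of 20 to 49 UMIs has the highest unspliced share (15.2% in the control and 23.5% in light damage) and the lowest mitochondrial share (1.27% and 1.43%).

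The members also varied among themselves more than random draws from 1 mixture would. Among barcodes of 20 to 49 UMIs, the variance of the unspliced count was 2.65 times the binomial variance in the control and 3.75 times in light damage, where 1 is the value for draws from a single mixture. In the control 196 of these barcodes (1.51%) and in light damage 322 (7.96%) were at least 50% unspliced. Without the neighbours of droplets the ratio was 1.67 and 2.31, and 26 and 83 such barcodes were left, so a large part of this spread lay in the neighbours. Mitochondrial counts spread 3.09-fold and 2.95-fold over binomial, and this did not shrink without neighbours (3.19 and 3.18). Rod transcripts spread less, 1.68-fold in the control and 1.52-fold in light damage. Hemoglobin transcripts were the most clumped, 13.9-fold in the control, where a single barcode held 23 of the 65 UMIs of the class. In light damage they were at 6.69 with the neighbours of droplets and at 1.52 without them. For the control, too few hemoglobin UMIs were left without neighbours to give that value, so the part of neighbours there is not known. In barcodes of 5 to 9 UMIs these spreads lay closer together. Unspliced, mitochondrial, rod and hemoglobin counts there had 2.26, 2.25, 2.23 and 2.61 in the control, and 1.33, 1.22, 1.24 and 1.27 in light damage.

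Free RNA was a retinal profile led by rod genes. UMIs of a 3′ protocol count molecules at their 3′ ends, so levels are given as CPM, UMIs of a gene per 1000000 spliced and ambiguous UMIs of a pool, without division by length. Among the highest genes in the control were Gngt1, a subunit of the rod G protein transducin, with 28276 CPM, Gm42418, a gene model that overlaps ribosomal RNA sequence, with 18355 CPM, the rod arrestin gene Sag with 16041 CPM and the phosphodiesterase subunit Pde6g with 12952 CPM. In light damage Gngt1 had 18616 CPM, Sag 14157 and Gnat1, the catalytic transducin subunit, 10363 CPM. Ttr, which encodes transthyretin and is made at high level in the RPE, stood next in light damage with 10198 CPM, against 2460 CPM in control free RNA. Malat1, a long non-coding RNA kept in the nucleus, had 8703 CPM in light damage free RNA, whereas it was the highest gene of the droplets there with 30141 CPM. In all, 13324 genes had a UMI in control and 15793 in light damage free RNA, and the 20 highest held 21.2% and 17.2% of the free UMIs.

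Across genes, control free RNA followed cytoplasm-rich droplets (Pearson r = 0.93 of log levels over 6582 genes) more closely than nucleus-rich ones (0.76), and light damage free RNA did likewise (0.89 and 0.77 over 9549 genes). Barcodes of 30 to 99 UMIs in light damage had r = 0.88 with cytoplasm-rich and 0.89 with nucleus-rich droplets. These values describe genes of shared libraries and base composition, and genes are not replicates.

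Free RNA was then set against the droplets of its own library, gene by gene. A gene entered where at least 20 UMIs were expected in the smaller pool, and it was called where the ratio was at least 2-fold (log2 of at least 1 or at most -1) with an interval that left out 0. In the control 34 of 6582 genes (0.517%) were higher in free RNA and 514 (7.81%) lower. In light damage 339 of 9549 (3.55%) were higher and 2056 (21.5%) lower. The median gene had a log2 ratio of -0.20 in the control and -0.30 in light damage, and centred on that median the counts became 78 higher and 243 lower in the control and 925 higher and 1145 lower in light damage. Lists of genes are described by their summed level, by the number of members called and by the median over members, beside these values over all genes.

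Rod transcripts were nearly as frequent in free RNA as in droplets. The 19 rod genes summed to 142244 CPM in control free RNA and 147221 CPM in control droplets, a log2 ratio of -0.05 (-0.06 to -0.04), which became 0.15 centred on the median gene and 0.10 with unspliced UMIs added. In light damage they summed to 105158 and 89032 CPM, a log2 ratio of 0.24 (0.23 to 0.25), or 0.54 centred. One rod gene was called lower in the control, and 1 was higher and 3 lower in light damage, with list medians of -0.16 and 0.11. Gngt1 was at 28276 CPM in control free RNA against 19829 CPM in droplets (log2 ratio 0.51) and at 18616 against 8793 CPM in light damage (1.08), the rod gene called higher there. Slc24a1, the sodium-calcium-potassium exchanger of the outer segment, was lower in both, at 1241 against 2899 CPM in the control (-1.22) and 880 against 2220 CPM in light damage (-1.33). Cnga1, the rod cation channel, had -0.95 in the control and -1.16 in light damage, and Rp1, an axoneme protein with a very long transcript, -0.70 and -1.44.

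Rod genes were also divided by the place of translation of their proteins. Transcripts of 13 membrane proteins made at the endoplasmic reticulum, among them Prph2 and Rom1, had a summed log2 ratio of -0.37 (-0.39 to -0.36) in the control and 0.06 (0.05 to 0.07) in light damage. Transcripts of 16 proteins made in the cytosol, among them Sag, Gngt1 and Rcvrn, had 0.17 (0.16 to 0.18) and 0.46 (0.45 to 0.46). The membrane group was thus lower relative to droplets than the cytosolic group in both libraries, by summed level, and its list medians were -0.41 and -0.07 against 0.08 and 0.28. Transcript length, which ordered the ratios over protein-coding genes (below), was not matched between the groups, and its part was not tested. Against cytoplasm-rich droplets alone, 101 of 6065 genes (1.67%) were higher and 301 (4.96%) lower in the control, and 893 of 8805 (10.1%) higher and 968 (11%) lower in light damage. In that comparison the membrane group had -0.47 in the control and -0.34 in light damage, and the cytosolic group 0.05 and 0.14. Against all droplets, Rgs9, which speeds the shutoff of transducin, lay below the sum of its cytosolic group, with -0.87 in the control and -2.07 in light damage.

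Other cells of the retina were represented unequally. Cone genes summed to 890 CPM in control free RNA and 996 CPM in control droplets (log2 ratio -0.16, and 0.04 centred on the median gene), and to 1811 and 1609 CPM in light damage (0.17). None of 8 tested cone genes was called in the control, and 3 of 11 were lower in light damage. Bipolar cell genes were higher in control free RNA, with 387 against 246 CPM (0.65, interval 0.51 to 0.79), which became -0.15 with unspliced UMIs added and -0.18 in barcodes of 30 to 99 UMIs. Pcp2, a marker of ON bipolar cells, was at 148 against 49.3 CPM (1.59) and Gng13, a G protein subunit of the same cells, at 64.3 against 24.0 CPM (1.42), and these were the 2 of 4 tested bipolar genes called. In barcodes of 30 to 99 UMIs neither was called, and Pcp2 turned to -0.56 (-0.95 to -0.19). In light damage bipolar genes summed to 226 CPM in free RNA and 319 CPM in droplets (-0.50, interval -0.62 to -0.37), with Trpm1, the cation channel of ON bipolar cells, lower (-1.55). Markers of amacrine, horizontal, ganglion and astrocyte cells gave between 1 and 80 UMIs a list in control free RNA and between 21 and 217 in light damage, too few for most single genes to be tested.

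Relative to all droplets, Müller glia, the RPE and erythrocytes changed places between the libraries. The 14 Müller glia genes summed to 1261 CPM in control free RNA against 2126 CPM in droplets, a log2 ratio of -0.75 (-0.83 to -0.68), with 5 of 11 tested genes lower. In light damage they summed to 4640 against 3305 CPM, a log2 ratio of 0.49 (0.46 to 0.52), with 1 of 12 higher and 4 lower. Clu, a secreted chaperone, had -1.18 in the control and 0.18 in light damage, and Apoe, a lipid carrier, -0.68 and 0.99. Aqp4, the water channel of Müller end feet, was lower in both (-2.05 and -1.17), and so was the transcription factor gene Sox9 (-1.33 and -1.20). The sum in light damage was mostly Apoe (4901 UMIs) and Clu (3942 UMIs), which the RPE also expresses, and Dbi (1.18) was the gene called higher, while the list median was -0.01.

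RPE genes summed to 3296 CPM in control free RNA against 5505 CPM in droplets (log2 ratio -0.74, interval -0.79 to -0.69), and to 12826 against 7258 CPM in light damage (0.82, interval 0.80 to 0.84). In the control 4 of 9 tested genes were lower, and in light damage 2 of 11 were higher and 1 lower. Ttr, which gave most of the UMIs of this list, was at 2460 against 3966 CPM in the control and 10198 against 5398 CPM in light damage. Rdh5, a retinol dehydrogenase of the visual cycle, was at 214 against 349 CPM and at 1071 against 487 CPM (1.14), where barcodes of 30 to 99 UMIs gave -0.75. Rpe65, the isomerase of the visual cycle, did not follow them, at 87.3 against 251 CPM in the control (-1.52) and 61.5 against 184 CPM in light damage (-1.58). Against cytoplasm-rich droplets RPE genes were lower in both libraries, with log2 ratios of -1.14 and -0.55. The droplet sum of light damage held many more nucleus-rich droplets, in which RPE genes were at 223 CPM against 18760 CPM in the cytoplasm-rich ones.

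Erythrocyte genes had the widest difference between the libraries. They summed to 508 CPM in control free RNA and 2903 CPM in control droplets, a log2 ratio of -2.51 (-2.63 to -2.40), with 4 of 4 tested genes lower. In light damage they summed to 4596 and 2651 CPM, a log2 ratio of 0.79 (0.77 to 0.82), and Hbb-bt, an adult beta-globin gene, was called higher (1.44), which turned to -1.70 in barcodes of 30 to 99 UMIs. In the control 44.8% of the Hba-a1 UMIs of the droplets lay in 1 droplet. Without the highest 1% of droplets by total the list had -2.68 in the control and 0.66 in light damage. Droplets were left out there by total UMIs and not by hemoglobin, so these values are no check on that 1 droplet. The alpha- and beta-globin genes are near-identical pairs (Hba-a1 and Hba-a2, Hbb-bs and Hbb-bt), and the division of reads within each pair is uncertain. Against cytoplasm-rich droplets the list had -2.94 in the control and -0.47 in light damage.

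Immune cells gave few spliced and ambiguous UMIs to control free RNA. Microglia genes summed to 67 such UMIs (53.2 CPM) there against 75.02 CPM in droplets (log2 ratio -0.50, or 0.15 with unspliced UMIs added), and to 1023 UMIs (400.7 CPM) in light damage free RNA against 361 CPM in droplets, a log2 ratio of 0.15 (0.05 to 0.24) that became -0.10 with unspliced UMIs added and -1.15 in barcodes of 30 to 99 UMIs. Tyrobp, a microglial signalling adaptor, was higher in light damage free RNA (1.11), but had -0.27 (-0.67 to 0.12) in barcodes of 30 to 99 UMIs. Against cytoplasm-rich droplets the microglia list was higher in light damage (1.39), where cytoplasm-rich droplets held 153 CPM and nucleus-rich ones 486 CPM. Unspliced UMIs, which these levels leave out, were 90.9% of the microglia list in control free RNA (670 UMIs) and 37.5% in light damage free RNA (613 UMIs). Neutrophil genes gave 23 UMIs in control and 11 in light damage free RNA, endothelial genes 11 and 54, fibroblast genes 3 and 4 and lens genes 0 and 12. The pericyte list was carried by Vtn, which rods also express, with 1591 and 2710 UMIs and log2 ratios of -0.16 and 0.43.

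Transcripts of the cytoplasm were enriched together in free RNA of the light damage library. The 80 cytosolic ribosomal protein genes, of which 77 were tested singly, summed to 106740 CPM in control free RNA and 77701 CPM in droplets (log2 ratio 0.46, interval 0.45 to 0.47), and none was called. In light damage they summed to 98144 and 44208 CPM (1.15, interval 1.14 to 1.16), and 59 of 77 were called higher against 3.55% of all genes. Relative to the median gene the list stood at 0.66 and 1.45. Nuclear genes of oxidative phosphorylation had 0.40 (0 of 78 called) and 0.97 (38 of 81 higher), and the 13 mitochondrial genes 0.47 (none called) and 0.88 (5 higher, 1 lower). The gene called lower was mt-Atp8, at 66.6 against 166 CPM (a log2 ratio that turned to 0.25 in barcodes of 30 to 99 UMIs), whose reading frame overlaps that of mt-Atp6, at 6961 against 3145 CPM (1.15). Against cytoplasm-rich droplets alone these lists stood closer to 0, at 0.28 and 0.54 for ribosomal proteins, 0.23 and 0.31 for oxidative phosphorylation and 0.31 and 0.17 for mitochondrial genes, and no ribosomal protein gene was called in either library.

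Nuclear long non-coding RNA was depleted relative to all droplets when all free RNA barcodes were summed. The list, almost entirely Malat1, stood at 10111 CPM in control free RNA against 12723 CPM in droplets (log2 ratio -0.33, interval -0.36 to -0.31) and at 8802 against 30495 CPM in light damage (-1.79, interval -1.81 to -1.77). Kcnq1ot1, an imprinted nuclear transcript, was lower in both (-1.88 and -2.35). Free RNA was not free of nuclear transcripts, since Malat1 had 10024 CPM in control free RNA against 1827 CPM in cytoplasm-rich droplets, and 8703 against 799 CPM in light damage. Its level in nucleus-rich droplets was 56774 and 49965 CPM. By this gene, too, free RNA lay between the 2 kinds of droplets. Against cytoplasm-rich droplets alone the list was higher in free RNA, with log2 ratios of 2.42 in the control and 3.41 in light damage. In barcodes of 30 to 99 UMIs the ratio of the list to all droplets turned positive in the control. In light damage the depletion was almost gone in that range (below). Xist, the RNA that coats the inactive X chromosome in female cells, was at 162 CPM in control free RNA and 422 CPM in control droplets (-1.38).

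**Figure D3:**
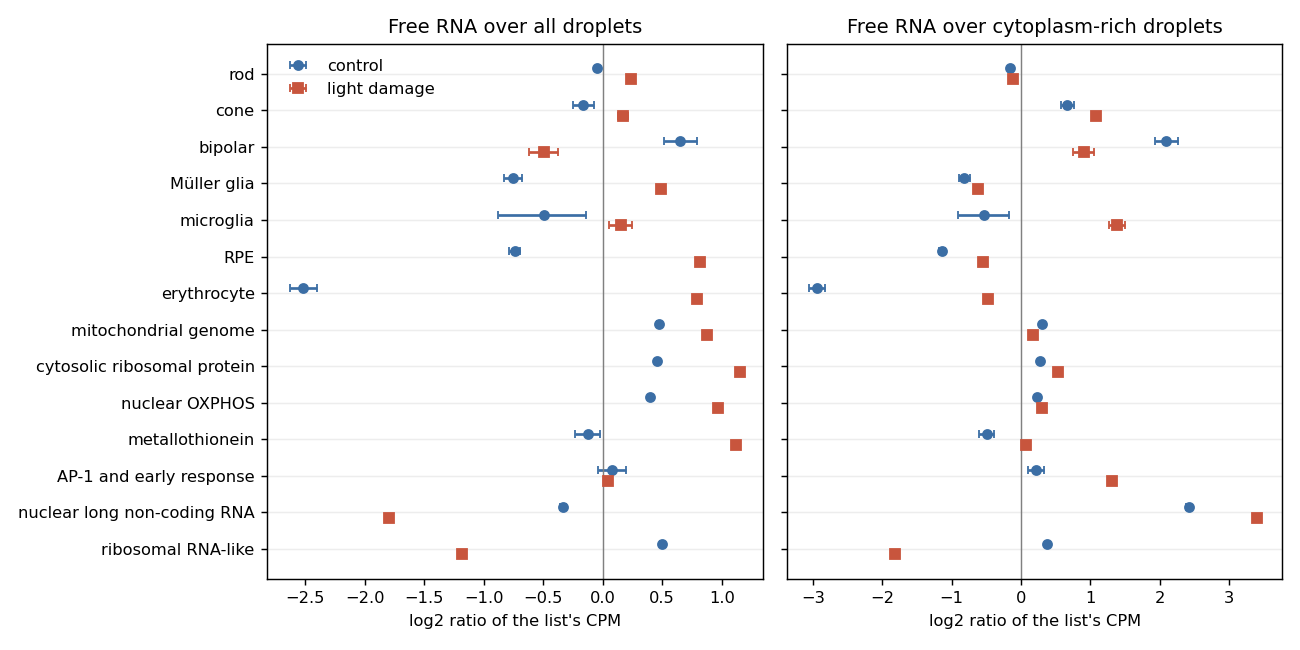
Log2 ratio of summed levels of gene lists in free RNA over all droplets (left) and over cytoplasm-rich droplets (right) of the same library, with 95% counting intervals, for control and light damage. Left, ribosomal protein genes stand at 0.46 and 1.15 and nuclear long non-coding RNA at -0.33 and -1.79. Right, nuclear long non-coding RNA stands at 2.42 and 3.41 and the ribosomal protein list at 0.28 and 0.54.

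Transcript length, which no rule used, ordered the ratios. Protein-coding genes were divided into 4 groups of like size by their longest annotated transcript, and the median log2 ratio of free RNA over droplets was 0.20, -0.12, -0.31 and -0.56 from the shortest to the longest group in the control. In light damage it was 0.46, -0.14, -0.53 and -0.97, and 2.15% of genes in the shortest but 48.2% in the longest group were called lower. By the unspliced share of a gene in droplets the medians went from 0.15 to -0.46 in the control and from 0.34 to -0.74 in light damage. Against cytoplasm-rich droplets the length order was narrower, from 0.15 to -0.31 in the control and from 0.36 to -0.37 in light damage. Both orders were taken alone, and the parts of length and splicing were not separated.

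Some genes stood out singly. Lipe, the hormone-sensitive lipase gene at chr7:25379527-25398710 (GRCm38), was the gene with the highest ratio in the control, at 1210 CPM in free RNA against 91.5 CPM in droplets (log2 ratio 3.72, interval 3.61 to 3.84). It was also high in light damage, at 641 against 143 CPM (2.16). Of its 1524 control UMIs in free RNA, 1522 were ambiguous, that is, they lay where spliced and unspliced transcripts share sequence, and they came from 1424 barcodes with at most 5 in 1 barcode. The gene was at 215 CPM in control barcodes of 1 to 9 UMIs and at 3158 CPM in those of 20 to 49, so its high level belonged to the second peak of totals. Csmd2 (chr4:127987857-128567656), which encodes a large synaptic membrane protein, had 391 against 49.3 CPM in the control (2.99) and a log2 ratio of 2.19 in light damage. Sec61a1 (chr6:88503579-88518905), the channel subunit of protein import into the endoplasmic reticulum, had 360 against 66.4 CPM in the control (2.44), 33.6 CPM in barcodes of 1 to 9 and 640 CPM in those of 30 to 99 UMIs. Of its 454 UMIs, 431 were ambiguous, as were all 85 UMIs of Olfr873, an odorant receptor gene with a log2 ratio of 1.91, while Ccnd3, a D-type cyclin, had 1.83.

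At the other end in the control, Hba-a1 had a log2 ratio of -2.75 and Gsto1, a glutathione transferase, -2.84. Ifitm1 had -4.20, Ly6a -3.84 and Pglyrp1 -3.03. More than 99% of the droplet UMIs of Gsto1, Ifitm1, Ly6a and Pglyrp1 came from 1 droplet each, and without the highest 1% of droplets by total these 4 ratios turned to between 2.50 and 5.03, so they rest on 1 droplet. In light damage the gene with the highest ratio was Ccl12 (chr11:82101845-82103400), a chemokine that attracts monocytes, at 404 CPM in free RNA against 54.1 CPM in droplets (2.90, interval 2.78 to 3.02). Its 1032 free UMIs came from 936 barcodes with at most 4 in 1, and 16.2% of its droplet UMIs lay in 1 droplet. S100a6, a small calcium-binding protein, was at 108 against 30.4 CPM (1.84), and Ifitm3, an interferon-induced membrane protein, had a log2 ratio of 1.88. Rbm41 (1 UMI in free RNA against 351 in droplets), Nrxn3 (3 against 421), Gm19605 (1 against 252), AC165425.1 (1 against 251) and Gm45159 (20 against 1633) were the genes with the lowest ratios, between -3.06 and -5.16.

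The 2 populations of free barcodes differed in content in both libraries. Barcodes of 1 to 9 UMIs were set against those of 30 to 99, of which the members are those up to 49 UMIs. In the control 76 of 4900 genes (1.55%) were higher and 657 (13.4%) lower in the smaller barcodes, and in light damage 339 of 8742 (3.88%) were higher and 977 (11.2%) lower. RPE genes were at 4231 CPM in the smaller against 992 CPM in the larger barcodes of the control (log2 ratio 2.09, 4 of 6 higher) and at 13206 against 3064 CPM in light damage (2.11, 8 of 11 higher). Erythrocyte genes were at 645 against 138 CPM (2.23, 3 of 3 higher) and at 4843 against 856 CPM (2.50, 4 of 4 higher). Both kinds of RNA from outside the neural retina thus had higher levels in the smaller barcodes.

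Mitochondrial genes were at 59257 against 18718 CPM in the control (1.66, 10 of 13 higher) and at 35828 against 23800 CPM in light damage (0.59, none higher and 1 lower). Metallothionein genes had 1.45 and 1.24, and Müller glia genes 0.59 and 1.15. In the other direction, nuclear long non-coding RNA was at 5149 against 19224 CPM in the control (-1.90) and 7981 against 30000 CPM in light damage (-1.91). Genes that overlap ribosomal RNA, mainly Gm42418, were at 7295 against 45560 CPM (-2.64) and at 6865 against 81969 CPM (-3.58). Rod genes differed little, by 0.16 and 0.32, and ribosomal protein genes by 0.33 and 0.72. The larger barcodes were hence richer in nuclear and ribosomal RNA-like transcripts and poorer in mitochondrial, RPE and hemoglobin transcripts than the smaller ones in both libraries.

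The position of the bound bears on the comparison with droplets for this reason. Taken over 30 to 99 UMIs instead, the light damage ratios to droplets turned from 0.82 to -1.24 for RPE genes, from 0.79 to -1.63 for erythrocyte genes, from 0.49 to -0.64 for Müller glia genes and from -1.18 to 1.81 for ribosomal RNA-like genes. In the control the mitochondrial list turned from 0.47 to -0.76 and nuclear long non-coding RNA from -0.33 to 0.60, and in light damage nuclear long non-coding RNA moved from -1.79 to -0.02. Ribosomal protein genes stayed above 0, at 0.26 in the control and 0.46 in light damage.

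**Figure D4:**
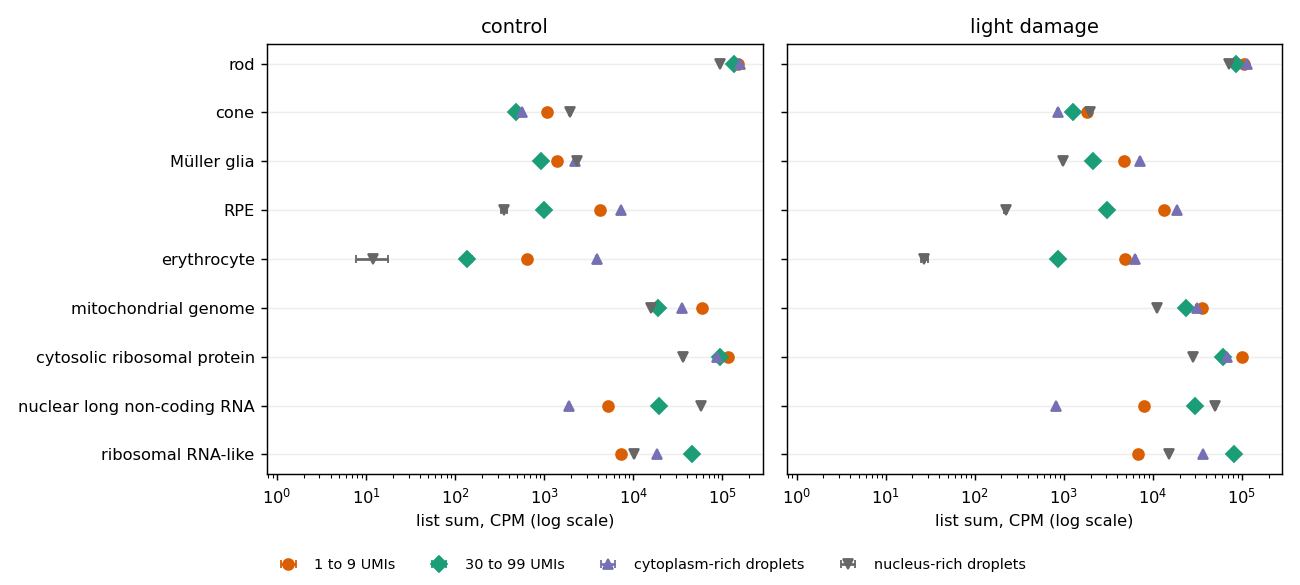
Summed level of gene lists in CPM (log scale) in barcodes of 1 to 9 UMIs, barcodes of 30 to 99 UMIs, cytoplasm-rich droplets and nucleus-rich droplets of the control (left) and light damage (right) library, with exact Poisson 95% intervals. RPE genes are at 4231 and 992 CPM in the small and the large control barcodes and at 13206 and 3064 CPM in light damage, and ribosomal RNA-like genes at 7295 and 45560 and at 6865 and 81969 CPM.

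Light damage free RNA was next set against control free RNA. Over 6894 tested genes, 908 (13.2%) exceeded and 94 (1.36%) fell short of the control 2-fold, the median gene stood at 0.18, and centred on it the counts were 627 and 199. The same contrast in the droplets called 2598 of 12375 (21%) in the upward and 231 (1.87%) in the downward direction, and its median gene stood at 0.47. Both contrasts use the same 2 libraries, so their values are set side by side and are not independent. In barcodes of 1 to 9 UMIs alone 812 of 5253 genes (15.5%) were higher and 41 (0.781%) lower, and in those of 30 to 99 UMIs 1024 of 8263 (12.4%) and 146 (1.77%). In barcodes of 10 to 49 UMIs the directions were closer to balance, with 285 higher and 202 lower of 3280 genes.

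Summed by list, transcripts of the early response to light damage were present in free RNA at a similar excess as in droplets. Chemokine genes had 13 UMIs (10.3 CPM) in control and 2827 UMIs (1107 CPM) in light damage free RNA, a log2 ratio of 6.75 (5.97 to 7.66), beside 7.19 (6.74 to 7.69) in droplets, with 4 of 4 tested genes higher. Ccl12 had 1032 UMIs against 0, at least 170-fold higher where 3 UMIs are taken as the most a count of 0 allows, and with a lower end of 7.11 (log2) by the wider conditional interval used for the other ratios. Ccl4, a chemokine of the CC family, had 1080 UMIs against 3 (7.47, interval 5.92 to 9.75) and Ccl3 480 against 1 (7.89, interval 5.40 to 13.19). The AP-1 and early response list, which holds immediate early transcription factors, had 2.54 in free RNA and 2.58 in droplets, with 11 of 12 tested genes higher, among them Junb with 662 against 19.9 CPM (5.06), Fos with 159 against 5.56 CPM (4.84) and Egr1 with 173 against 10.3 CPM (4.06). Within this early response list, Jun had a smaller ratio in free RNA than in droplets (3.20 and 4.26) and Jund a larger one (2.65 and 1.99). JAK-STAT genes had 1.73 and 1.77, with 6 of 9 higher. Among them were the transcription factor Stat3 (3.67) and its feedback inhibitor Socs3 with 97 UMIs against 1 (5.58).

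Acute-phase and metallothionein transcripts had a larger excess in free RNA than in droplets. Acute-phase genes had a log2 ratio of 3.65 (3.27 to 4.07) in free RNA and 2.78 (2.69 to 2.88) in droplets, with 5 of 5 higher. Serpina3n, a secreted protease inhibitor of reactive glia, had 321 UMIs against 0, at least 52.8-fold higher by the same floor (lower end of the conditional interval 5.42, log2), and Lcn2, an iron-binding secreted protein, 208 against 10 (3.36). Metallothionein genes, whose proteins bind zinc and copper, had 3.24 (3.14 to 3.35) beside 1.99 (1.96 to 2.03), with 3 of 3 higher, and Mt1 was at 4129 against 437 CPM (3.24) and Mt2 at 1129 against 65.1 CPM (4.12). The ratio of the free RNA change to the droplet change was 1.25 on the log2 scale for metallothioneins (1.14 to 1.36) and 0.87 for acute-phase genes (0.47 to 1.27), but -0.04 (-0.16 to 0.08) for the early response and -0.45 (-1.35 to 0.46) for chemokines. A value above 0 was not particular to these lists. It was 0.69 for ribosomal protein, 0.57 for oxidative phosphorylation and 0.41 for mitochondrial genes, and the acute-phase interval holds the ribosomal protein value. C/EBP genes, with Cebpd at 310 against 11.1 CPM (4.80), had 2.46 and 1.86.

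Marker genes of several cell types were higher in light damage free RNA, by more than in the droplets. Erythrocyte genes had a log2 ratio of 3.18 (3.06 to 3.29) in free RNA and -0.13 (-0.15 to -0.11) in droplets, with 4 of 4 higher, Hbb-bs at 2523 against 265 CPM and Hba-a1 at 1563 against 189 CPM. RPE genes had 1.96 (1.91 to 2.01) beside 0.40 (0.39 to 0.41), with 9 of 10 higher, and the value in droplets is below the median gene of droplets (0.47). Ttr had 2.05 and Rdh5 2.33, and Rpe65 again did not follow, at 61.5 against 87.3 CPM (-0.51). Müller glia genes had 1.88 (1.80 to 1.96) beside 0.64 (0.62 to 0.66), with 8 of 9 higher, among them Apoe (2.32), Clu (2.19) and Vim, an intermediate filament gene of reactive glia (2.44). Microglia genes had 2.91 (2.56 to 3.29) beside 2.27 (2.17 to 2.37), with 7 of 7 higher, and C1qb, a complement gene of microglia, had 3 and 175 UMIs (4.85). The microglia change in free RNA exceeded that in droplets by 0.65 (0.28 to 1.02), near the 0.69 of ribosomal protein genes. With unspliced UMIs added the microglia ratio in free RNA was 0.11. These excesses were also seen in barcodes of 1 to 9 UMIs alone, at 2.91 for erythrocyte, 1.64 for RPE, 1.77 for Müller glia and 2.74 for microglia genes, and in those of 30 to 99, at 2.64, 1.63, 1.21 and 2.63.

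Rod genes moved less, while cone genes were higher. Rod genes had a log2 ratio of -0.44 (-0.44 to -0.43) in free RNA and -0.73 (-0.73 to -0.72) in droplets, with 2 of 19 called lower in free RNA. All 19 lay below 0, with a median of -0.50, from which Gnat1 stood apart at 10363 against 10365 CPM. The 2 rod genes called were Nr2e3, a transcription factor of rod identity, at 524 against 1527 CPM (-1.54), and Gnb1, the beta subunit of transducin, at 3550 against 7373 CPM (-1.05). Cone genes had 1.02 (0.93 to 1.12) beside 0.69 in droplets, with 4 of 8 higher and the cone pigment gene Opn1mw at 117 against 31.0 CPM (1.91). Gnb3 (1.23) gave 2422 of the 4624 UMIs of the cone list in light damage free RNA, while Opn1sw had 0.30 and Gnat2 0.17. Bipolar genes were lower in free RNA, at -0.78 (-0.95 to -0.60), while in droplets they had 0.37, which is below the median gene there, and in barcodes of 30 to 99 UMIs they had 0.34. Ribosomal protein genes stood at -0.12 in free RNA and -0.81 in droplets, oxidative phosphorylation genes at -0.19 and -0.76, mitochondrial genes at -0.33 and -0.74, and nuclear long non-coding RNA at -0.20 and 1.26. In free RNA the mitochondrial value turned to 0.35 in barcodes of 30 to 99 UMIs, and that of nuclear long non-coding RNA to 0.63 in those of 1 to 9.

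The pools also differed in sex-linked transcripts. Xist had 204 UMIs in control and 1 UMI in light damage free RNA (-8.69, interval -14.00 to -6.20), and its antisense partner Tsix 69 and 0, at least 46.6-fold lower in light damage. The 4 Y-linked genes had 14 and 278 UMIs (3.29, interval 2.52 to 4.18), with Eif2s3y at 3 and 133. The control pool therefore held RNA of female cells and the light damage pool almost none, and sex and light damage cannot be told apart in any of these ratios. Other genes lower in light damage free RNA were the histone gene Hist3h2ba with 74 UMIs against 215 (-2.56), Gstp1, a glutathione transferase, with 133 against 327 (-2.32) and Gsto1 with 12 against 50 (-3.08). The lncRNA 3930402G23Rik had 310 UMIs against 0, at least 51.0-fold higher.

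**Figure D5:**
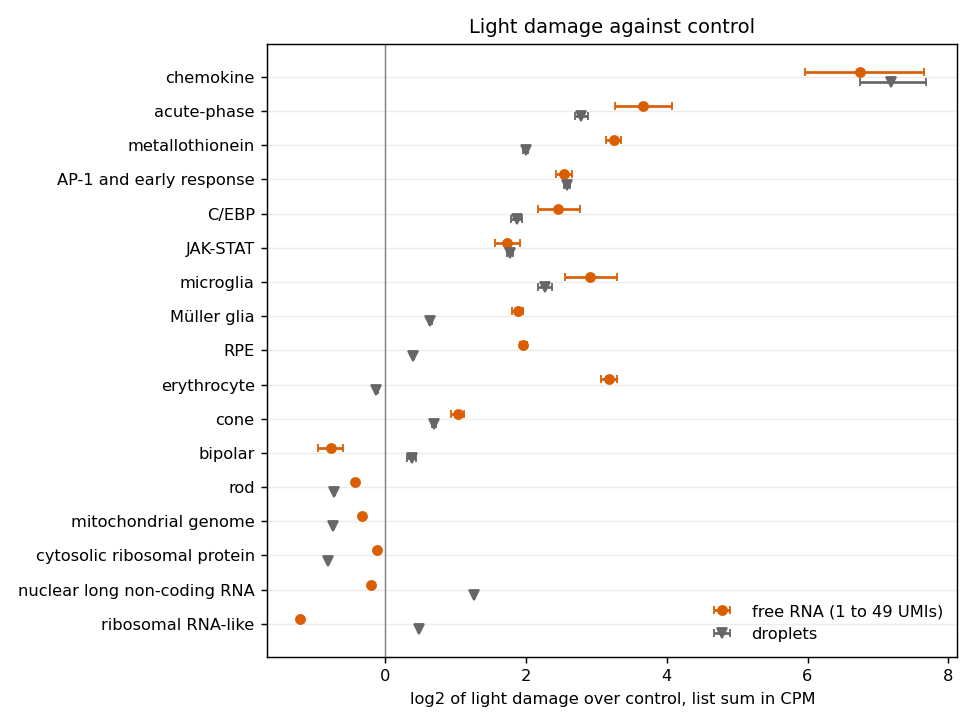
Log2 ratio of light damage over control for summed gene lists in free RNA (orange circles) and in droplets (grey triangles), with 95% counting intervals from 1 library per condition. Erythrocyte genes stand at 3.18 in free RNA and -0.13 in droplets, RPE genes at 1.96 and 0.40, metallothionein genes at 3.24 and 1.99, and the early response at 2.54 and 2.58.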

How the data were processed

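Per the labels and the study's methods, the authors sequenced 3′ 10x libraries (v3.1 chemistry), mapped reads to a spliced and intron index of mm10 with Salmon 1.10.1 (strand-aware) and alevin-fry 0.8.1, and deposited whole-number UMI counts for each gene and barcode in spliced, unspliced and ambiguous blocks. The submitters' processing notes also name Cell Ranger 7.0.1. No removal of empty droplets or ambient RNA is in these counts. No column of another sample was used (0 columns). Gene IDs were named from GENCODE vM21 (GRCm38), with 32158 of 32285 matched, and 1 list gene had no match.

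Barcodes of 1 to 49 UMIs were summed per library (free RNA), as were barcodes of at least 1500 UMIs and under 10% mitochondrial UMIs (droplets), among them cytoplasm-rich (under 20% unspliced) and nucleus-rich ones (over 30%). Doublets were not removed, since droplets were only summed. Levels are spliced plus ambiguous UMIs per 1000000 such UMIs, and shares use all UMIs. The free pools held 1259397 control and 2553052 light damage spliced plus ambiguous UMIs, which set the precision, and the droplets 11996733 and 25012561. With 1 library per condition no test was made. Intervals are at 95%, genes needed at least 20 expected UMIs in the smaller pool, and calls needed 2-fold with an interval that left out 0. A count of 0 was bounded by 3 UMIs per pool.

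Named genes are those of 33 lists and, in each comparison, the 5 highest and 5 lowest ratios by the interval end nearest 0. Some genes are not reported here by name. The choice of list genes described one by one followed a look at their values. Members and lists were chosen with earlier results of these data known. The steps were tested on simulated counts. Computation used pandas 2.3.3, scipy 1.17.1, numpy 2.4.6 and matplotlib 3.10.9 under Python 3.11.15. Alternatives were other ranges of UMIs, leaving out barcodes 1 base from a droplet or shared with the other library's droplets, other droplet limits, unspliced UMIs added, other totals, centring and other minimum counts. The range of 30 to 99 UMIs (50 to 99 for the spread among barcodes) was chosen after seeing the data.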

Additional observations from a re-analysis of the deposited data

Results flagged for a closer look

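The ratio of free RNA to droplets lay on opposite sides of 0 in the light damage and the control library, with both counting intervals leaving out 0, for 14 lists. Amacrine genes also had opposite signs, at 0.067 in light damage and -0.71 in the control, but the light damage interval (-0.16 to 0.29) held 0. The difference between the libraries was not tested, since each condition is 1 library, and with a change of bound to 30 to 99 UMIs some of these ratios turned again. Lists for cells outside the neural retina were among them, with summed log2 ratios of 0.79 in light damage and -2.51 in the control for erythrocyte genes. RPE genes had 0.82 and -0.74 and neutrophil genes -1.77 and 0.88. Against cytoplasm-rich droplets, and with 30 to 99 UMIs against all droplets, erythrocyte and RPE genes lay below 0 in both libraries. The pericyte list had 0.43 and -0.16, but nearly all its free UMIs were of Vtn, which rods also express. Among neural and glial cells the values were 0.24 and -0.05 for rod genes, 0.057 and -0.37 for rod membrane proteins made at the endoplasmic reticulum, 0.17 and -0.16 for cone, -0.50 and 0.65 for bipolar, 0.49 and -0.75 for Müller glia and 0.15 and -0.50 for microglia genes. The rod, cone, pericyte and metallothionein lists were above 0 in both libraries when centred on the median gene. The remaining lists were ribosomal RNA-like genes at -1.18 and 0.50, acute-phase genes at 0.090 and -0.78, metallothionein genes at 1.12 and -0.13 and C/EBP genes at 0.21 and -0.38. The neutrophil list rests on 11 light damage and 23 control UMIs in free RNA, and its control ratio was 4.44 without the top 1% of droplets.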

How the results depend on the processing

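No paired analysis was possible because each condition is 1 library and no label gives a replicate number. Depth limits free RNA to genes with about 20 UMIs or more, and intervals cover counting error alone. Called genes against droplets in the control (548) became 1010 with 1 to 9 UMIs, 202 with 10 to 49 UMIs, 1099 with unspliced UMIs, 321 centred on the median gene, and 1101 and 112 with at least 5 and 100 expected UMIs. In light damage (2395) they became 928 with 10 to 49 UMIs, 525 with 30 to 99 and 1436 with at least 100 expected UMIs. Light damage against control (1002) became 487 with 10 to 49 UMIs, and 1885 and 187 with at least 5 and 100 expected UMIs. With 1 to 9, 10 to 49 and 30 to 99 UMIs, the log2 ratio to droplets of the rod list became 0.015, -0.17 and -0.14 in the control and 0.25, 0.17 and -0.065 in light damage, that of ribosomal protein genes 0.59, 0.19 and 0.26 and 1.18, 0.99 and 0.46, the unspliced share 10.2%, 15.2% and 13.1% and 13.0%, 16.4% and 19.4%, and the mitochondrial share 5.32%, 1.44% and 1.63% and 3.12%, 2.54% and 1.92%. With unspliced UMIs added, the rod list had 0.10 and 0.59 and ribosomal proteins 0.64 and 1.64. Centred, they had 0.15 and 0.54, and 0.66 and 1.45. With totals without mitochondrial and hemoglobin genes they had -0.035 and 0.27, and 0.47 and 1.18. With droplets of at least 500 UMIs the rod list had 0.20 in light damage and ribosomal proteins 0.40 and 1.06, without the top 1% of droplets 0.23, and 0.44 and 1.14, and without the mitochondrial limit ribosomal proteins had 0.45 and 1.14. Without barcodes 1 base from a droplet, ribosomal proteins had 1.16 in light damage, the unspliced shares were 11.8% and 13.2%, the mitochondrial shares 3.90% and 3.05% and the spread of unspliced counts 1.67 and 2.31. That spread was 4.99 and 2.14 in barcodes of 10 to 19 UMIs and 2.23 and 1.64 in those of 50 to 99. The median difference between the free RNA and the droplet change (-0.04) turned to 0.031 with unspliced UMIs added. List ratios to droplets also turned with unspliced UMIs added, among them those of bipolar (-0.15) and microglia genes (0.15) in the control and of microglia genes in light damage (-0.10), and the ratio of control cone genes turned to 0.038 centred and to 0.036 with droplets of at least 500 UMIs. With 30 to 99 UMIs the control ratios to droplets became 1.06 for astrocyte and -1.68 for chemokine genes and -0.56 for Pcp2. In light damage they became 1.81 for ribosomal RNA-like genes, 1.85 for Gm42418, -0.089 for metallothioneins, -0.27 for Tyrobp, -1.70 for Hbb-bt, -0.75 for Rdh5 and 0.25 for mt-Atp8. Light damage over control became 0.85 for neutrophil and for ribosomal RNA-like genes, 0.81 for Gm42418 and 0.74 for Pcp2. With 10 to 49 UMIs Pcp2 had -0.68 against control droplets and 1.19 for light damage over control, and in light damage against droplets ribosomal RNA-like genes had 0.27 and Gm42418 0.24. With 1 to 9 UMIs Sec61a1 had -0.98 against control droplets and 0.70 for light damage over control. Without the top 1% of control droplets S100a6 had 4.17, Ifitm1 2.50, Pglyrp1 3.72, Ly6a 3.67 and Gsto1 5.03. Among named genes none turned under the other alternatives, and leaving out barcodes that are droplets of the other library turned no list or named gene. Microglia genes in free RNA, light damage over control, moved from 2.91 to 0.11 with unspliced UMIs added. Genes at 0 in a pool gave no ratio and are left out of these counts.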
